A study of Mus musculus with 3 samples.

Results

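The sarcomeric myosin chain genes studied here are 8 mouse genes that encode the heavy and light chains of the muscle motor protein myosin: Myh6, Myh7 and Myh7b (heavy chains), Myl2 and Myl7 (regulatory light chains), and Myl1, Myl3 and Myl4 (essential light chains). They were taken by name from the 22350 protein-coding genes of the GENCODE M1 annotation on the mouse assembly mm9 that lie on chromosomes with peaks. A peak was given to a gene when its midpoint lay within 50 kb of the annotated gene body. The score of a peak, in the lists of the peak caller MACS, rises as the p-value of its read enrichment falls. By this rule 29 of the 4418 peaks of library S1 and 27 of the 5441 peaks of library S4 lay at these genes, each peak counted once.

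The peaks come from chromatin immunoprecipitation followed by sequencing (ChIP-seq) of fixed whole hearts of Parkes mouse embryos at embryonic stage E11.5, with an antibody against the homeodomain transcription factor NKX2-5. The mice are described as wild type, and no treatment is stated. There were 2 immunoprecipitated libraries, S1 and S4, and 1 Input library of sonicated DNA, whose data were not analysed here. The labels do not say whether S1 and S4 came from separate pools of hearts, and the whole heart mixes atrial and ventricular muscle with other cells, so binding in one chamber and binding in another cannot be told apart. With 1 condition and 2 libraries no test was made. All values below describe these libraries, and counts and medians are set beside those over all peaks or all protein-coding genes where these were computed. The lists hold no read counts, so sequencing depth is unknown, and they hold no expression values with which to check the tissue label.

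Myosin forms the thick filament of the sarcomere, the contractile unit of striated muscle. A heavy chain carries the motor head that hydrolyses ATP and pulls on actin, and each head binds an essential and a regulatory light chain that stiffen and tune its lever arm. The heart uses its own set: in the mouse Myh6, Myl4 and Myl7 come to mark the atria in the embryo, while Myh7, Myl2 and Myl3 mark the ventricles, although early hearts express several of them in both chambers and Myh6 is the main ventricular heavy chain of the adult mouse. Myh7b is a heavy chain of extraocular and slow muscle, and Myl1 is the essential light chain of fast skeletal muscle. These 2 genes are called non-cardiac here. The label follows the muscle of their main use and does not say that the heart makes no transcript of them. NKX2-5 is expressed throughout the heart muscle and is required for its differentiation.

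The sequences printed here are those the description turns on. The upstream elements of Myl2 and Myh7 are shown because both libraries placed a peak there, away from the gene, and the promoters because a peak of at least 1 library lay over them. The window before the Myl4 coding start is not printed, since it holds exons of other transcripts. Each is 200 bases of mm9, read 5′ to 3′ on the strand of the gene. Capitals mark the core of the NKX2-5 site, AAGTG, and the core of the site of the homeodomain factor MEIS1, TGACA, on either strand, so that CACTT and TGTCA are the same cores on the other strand. The upstream windows are the centres of the stretches under a peak in both libraries, at chr5:122542862-122543061, chr5:122544558-122544757 and chr14:55623371-55623570. The promoter windows end at the base before an annotated start, at chr5:122550760-122550959, chr14:55613472-55613671, chr14:55585479-55585678, chr11:5798786-5798985 and chr9:110665950-110666149.
Myl2 distal upstream: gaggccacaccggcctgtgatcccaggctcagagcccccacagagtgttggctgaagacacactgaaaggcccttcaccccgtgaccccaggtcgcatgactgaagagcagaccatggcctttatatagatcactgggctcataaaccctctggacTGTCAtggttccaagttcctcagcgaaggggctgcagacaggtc
Myl2 proximal upstream: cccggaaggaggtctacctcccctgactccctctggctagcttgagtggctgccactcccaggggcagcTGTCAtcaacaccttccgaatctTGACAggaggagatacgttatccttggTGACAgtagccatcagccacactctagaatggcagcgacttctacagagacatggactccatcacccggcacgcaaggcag
Myh7 upstream: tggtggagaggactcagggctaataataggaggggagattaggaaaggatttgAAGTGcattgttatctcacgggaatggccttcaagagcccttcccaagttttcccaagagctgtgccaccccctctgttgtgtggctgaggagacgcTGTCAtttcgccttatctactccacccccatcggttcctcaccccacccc
Myl2 promoter: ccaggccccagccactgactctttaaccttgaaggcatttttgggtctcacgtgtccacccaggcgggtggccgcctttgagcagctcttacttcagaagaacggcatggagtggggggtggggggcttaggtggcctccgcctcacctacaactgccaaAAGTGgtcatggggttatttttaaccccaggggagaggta
Myh7 promoter: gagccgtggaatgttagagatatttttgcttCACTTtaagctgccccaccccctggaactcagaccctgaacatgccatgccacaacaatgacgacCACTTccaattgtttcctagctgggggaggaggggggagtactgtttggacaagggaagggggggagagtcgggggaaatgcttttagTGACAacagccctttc
Myh6 promoter: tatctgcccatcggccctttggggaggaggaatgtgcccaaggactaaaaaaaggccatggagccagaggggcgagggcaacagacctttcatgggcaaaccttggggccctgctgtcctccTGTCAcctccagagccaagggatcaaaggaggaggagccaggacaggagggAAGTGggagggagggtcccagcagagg
Myl7 promoter: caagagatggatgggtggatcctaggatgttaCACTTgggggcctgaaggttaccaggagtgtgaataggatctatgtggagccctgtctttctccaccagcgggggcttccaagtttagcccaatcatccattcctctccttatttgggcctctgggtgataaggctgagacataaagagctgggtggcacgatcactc
Myl3 promoter: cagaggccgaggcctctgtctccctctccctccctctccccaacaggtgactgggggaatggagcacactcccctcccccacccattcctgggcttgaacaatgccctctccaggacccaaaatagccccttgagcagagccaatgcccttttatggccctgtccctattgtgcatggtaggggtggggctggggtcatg

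The Myl2 element that lies 7.98 to 8.08 kb upstream held 1 TGACA core and no AAGTG core in these letters, and the element 6.30 kb upstream held 3 TGACA cores and no AAGTG core. The Myh7 element held 1 of each core. The Myh7 promoter window held 2 AAGTG cores and 1 TGACA core, the Myh6 window 1 of each, the Myl2 and Myl7 windows 1 AAGTG core each, and the Myl3 window neither. AAGTG was present in 33.5% and TGACA in 31.4% of the windows of 200 bases before all 22350 protein-coding starts. Around the midpoints of all 9859 peaks of both libraries the shares were 58.7% and 56.7%. A match is only a run of letters and does not show that a factor binds it.

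All 6 cardiac members had peaks in both libraries, and Myh7b and Myl1 had none in either. Over all protein-coding genes, 26.3% had a peak midpoint within 50 kb in S1, 32.0% in S4 and 19.2% in both. Peaks over the gene body itself were rarer, at 9.24% of genes in S1 and 11.7% in S4, and again all 6 cardiac members had one in each library. The nearest S1 peaks lay 1086 kb from Myh7b and 1746 kb from Myl1. The nearest S4 peaks lay 222 kb and 1205 kb away. No peak list can show that NKX2-5 is absent from these genes, since weaker binding than the lowest score kept by the authors, 140.0, would not be listed.

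Counted by class, peaks at atrial genes numbered 19 in S1 and 20 in S4 (mean 19.5 ± 0.707, SD, n = 2 libraries), and peaks at ventricular genes numbered 23 in each. The classes are not separate in these counts, because Myh6 and Myh7 are neighbours on chromosome 14 and the 13 S1 peaks and 16 S4 peaks around them fall in the window of both. Given only to its nearest member, a peak counted for the atrial class 14 times in S1 and 10 times in S4 and for the ventricular class 15 and 17 times. The ventricular count was the higher in both libraries under both ways of counting, by 1 peak in S1 and 7 in S4 when each peak counted once. The 2 non-cardiac genes stood at 0 in both.

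The gene bodies differed in how much of them lay under peaks. In S1 the share of the body under peaks was 16.9% for Myh6, 12.1% for Myl4 and 19.2% for Myl7 among the atrial genes, and 12.6% for Myh7, 55.6% for Myl2 and 3.25% for Myl3 among the ventricular genes. In S4 it was 53.0% for Myh6, 18.8% for Myl4, 92.4% for Myl7, 63.0% for Myh7, 76.6% for Myl2 and 24.2% for Myl3. S4 was the higher library for each of the 6 genes. The whole S4 list also covered more ground, 4594 kb against 2977 kb in S1. The ratio of S4 to S1 in bases of the body under peaks was 1.38 at Myl2, 1.55 at Myl4 and 3.14 to 7.46 at the other cardiac members. Within each class the order of the genes was the same in both libraries, Myl7, Myh6 and Myl4 among the atrial genes and Myl2, Myh7 and Myl3 among the ventricular genes. At least 20% of the body lay under peaks for 1 member in S1 (Myl2) and for 5 in S4 (all cardiac members but Myl4), against 0.331% and 0.640% of all protein-coding genes.

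**Figure D1:**
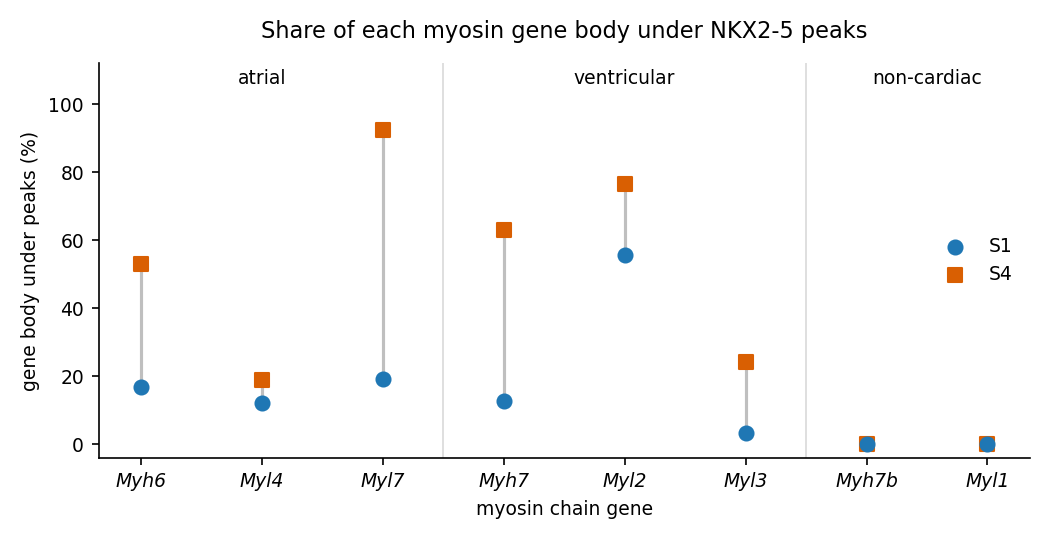
Share of each myosin gene body under peaks (y axis, percent) for the 8 genes (x axis) in S1 (circles) and S4 (squares), with a line joining the libraries. S4 lies above S1 for all 6 cardiac genes, by the widest gap at Myl7 (19.2% and 92.4%), and both libraries lie at 0 for Myh7b and Myl1.

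Averaged over the genes of a class, cover was 16.1% in S1 and 54.7% in S4 for the atrial genes (35.4 ± 27.3%, SD, n = 2) and 23.8% and 54.6% for the ventricular genes (39.2 ± 21.8%). The classes differed from each other by less than the libraries did. The atrial mean moved by over 1.5 times with either library alone and the ventricular mean with S1 alone. Short genes reach a high cover with 1 peak. Among the 13494 genes of at least 10 kb, a limit chosen after the values were seen, Myl2 had the highest cover in both libraries, Myh6 ranked 3 in both, and Myh7 ranked 8 in S1 and 2 in S4. Such cover was not limited to the members. Tpm1, which is not one of them, ranked 4 in both, with 15.9% of its body under peaks in S1 and 44.9% in S4. Myl4 ranked 11 in both. These ranks use annotated gene bodies, and Myl2 passes the limit only through transcript Myl2-012. The shorter coding transcripts Myl2-007 (4.3 kb) and Myl4-004 (9.9 kb) lie below the limit. On Myl2-007 cover was 54.6% in S1 and 64.9% in S4, and on Myl4-004 it was 32.5% and 45.9%. Ranks on such transcripts were not computed, so for Myl2 and Myl4 the limit does not fully remove the effect of length.

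At the heavy chain locus Myh7 and Myh6 lie one after the other on the minus strand of chromosome 14, with Myh7 upstream. Myh7 encodes the slower β heavy chain and Myh6 the faster α heavy chain, and the 3.76 kb between them holds the region that precedes the Myh6 start. From the peak downstream of Myh6 to the element upstream of Myh7, S1 had 13 peaks over 67.9 kb, 20.2% of it under peaks, and S4 had 15 peaks over 68.7 kb, 57.6% of it under peaks. The stretch between the genes was 55.9% under peaks in S1 and 100% in S4. The windows of these genes also held the most peaks of any but 1 of the 22350 protein-coding genes in S1 and the most in S4, counts that they share with each other and with the small gene Gm17428 annotated within Myh7.

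The widest S4 peak in the genome was at Myh6. It spanned 11100 bp, chr14:55578829-55589928, from inside Myh6 across its start and the whole stretch between the genes into the 3′ end of Myh7, with a score of 3100, the highest in the list. S1 split the same ground into 5 peaks of 489 to 1721 bp, whose highest score was 837.6 at chr14:55582827-55584547, inside Myh6 and 2.08 kb from its start. The S1 peak over the Myh6 start itself, chr14:55584927-55585673, was 747 bp wide with a score of 206. Deeper in Myh6, S4 had peaks of 2605 bp (chr14:55575928-55578532, score 684), 902 bp (chr14:55574133-55575034, score 283), 1964 bp (chr14:55571793-55573756, score 1083) and 836 bp (chr14:55570104-55570939, score 168). S1 had 703 bp at chr14:55576014-55576716 (score 149), inside the first of these, and 555 bp at chr14:55571043-55571597 (score 146), which met no S4 peak. Neither library had a base under a peak in the last 5002 bp of Myh6, whereas 62.7% (S1) and 79.0% (S4) of the 5 kb past its end lay under peaks. That downstream region, over Cmtm5, which encodes a transmembrane protein, was a single S4 peak of 4394 bp (chr14:55555314-55559707, score 1771) and 2 adjoining S1 peaks of 1105 and 2029 bp with scores of 402 and 698.

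Myh7 carried 8 S4 peaks over its body and 3 S1 peaks. The start was under a peak in both libraries: in S1 chr14:55612240-55613785, 1546 bp with a score of 689, and in S4 chr14:55610496-55613882, 3387 bp with a score of 2266. The highest-scoring peak inside the gene that only one library listed was an S4 peak of 5186 bp at chr14:55602662-55607847, 8.22 kb past the start, with a score of 1797. S4 also listed peaks without a partner of 950 bp (chr14:55609277-55610226, score 250), 974 bp (chr14:55596578-55597551, score 182) and 1131 bp (chr14:55598361-55599491, score 239). The body regions found in both libraries lay 11.96 kb past the start (S1 904 bp with a score of 244, S4 2077 bp with a score of 827) and 18.6 kb past it (S1 874 bp with a score of 289, S4 1390 bp with a score of 680). Upstream, the element 9.78 kb before the start was 962 bp wide in S1 and 1568 bp in S4, with scores of 458 and 719. S4 added a peak of 1119 bp 2.26 kb upstream (score 441) and one of 1152 bp 20.6 kb upstream (score 149), at the start of Ngdn.

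**Figure D2:**
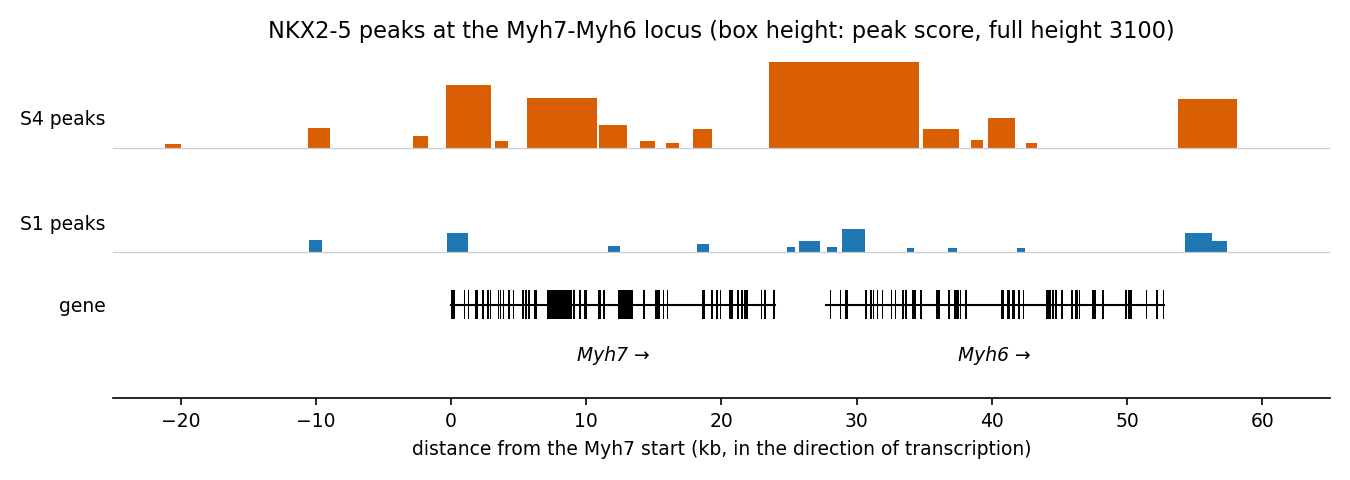
Peaks of S1 (blue) and S4 (orange) at Myh7 and Myh6 against the distance from the Myh7 start (x axis, kb, in the direction of transcription), with box width as peak width and box height as score. Black bars are exons of all annotated transcripts. Single S4 boxes of up to 11100 bp cover ground that S1 split into up to 5 peaks, and the end of Myh6 is free of peaks in both.

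These heavy chain genes host microRNAs in their introns. Mir208a lies in Myh6, Mir208b in Myh7 and Mir499 in Myh7b, and their mature products are known to act on the choice of myosin isoform. The mature sequences, from RefSeq on GRCm38.p6, are printed with the seed, bases 2 to 8, in capitals.
miR-208a-3p: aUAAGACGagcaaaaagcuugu
miR-208b-3p: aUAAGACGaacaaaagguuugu
miR-499-5p: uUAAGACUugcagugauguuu

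miR-208a-3p and miR-208b-3p shared the seed UAAGACG, and miR-499-5p had UAAGACU. All 77 bases of Mir208b, chr14:55594537-55594613 on mm9, lay under the shared region 18.6 kb past the Myh7 start, in S1 with a score of 289 and in S4 with a score of 680. Mir208a, chr14:55567897-55567979, was 3.06 kb from the nearest S1 peak and 2.13 kb from the nearest S4 peak, and Mir499, chr2:155448616-155448694, was 1097 kb and 233 kb away.

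Of the regulatory light chains, Myl2 binds the ventricular heavy chains and is an early marker of ventricular muscle. Its annotated body spans 12.5 kb. It had 7 S1 peaks and 4 S4 peaks. The S1 peak at chr5:122558826-122562861, 4036 bp wide with a score of 2107, was the highest-scoring S1 peak at any member and 4 in rank by width among all S1 peaks. In S4 the peak at chr5:122556086-122562855 was 6770 bp wide, 3 in rank by width in that list, with the top score of 3100. These peaks lay in the last part of the gene body, which is reached by 1 annotated transcript, Myl2-012. The other transcripts end by 122556863, and the 6.62 kb past that base were 69.3% under peaks in S1 and 90.5% in S4, against 40.2% and 61.0% of the 5.90 kb before it. The gene Ccdc63 overlaps this stretch on the other strand. The start of Myl2 was covered in both libraries, by 1695 bp in S1 (chr5:122550800-122552494, score 714) and 3072 bp in S4 (chr5:122550709-122553780, score 1659), and S1 had peaks inside the gene of 838 bp (score 328) and 549 bp (score 157).

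The upstream elements of Myl2 had peaks of about 1 kb in both libraries. At about 8 kb before the start the S1 peak was 1174 bp wide with a score of 1214 and the S4 peak 1047 bp wide with a score of 446. At 6.30 kb the widths were 1022 and 1145 bp and the scores 929 and 886. S1 had the higher score at both. S1 also listed a peak of 717 bp 57.1 kb past the start (score 152), at the start of Ppp1cc, a phosphatase gene.

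Myl7 encodes the regulatory light chain of the atria and is transcribed through the whole early heart tube. Its body is 2.15 kb long. In S4 a peak of 2129 bp, chr11:5797074-5799202 (score 381), covered the start, and a peak of 3052 bp, chr11:5793859-5796910 (score 932), covered the 3′ end and the ground beyond. In S1 the start had no peak, and 2 peaks of 1189 bp (chr11:5795863-5797051, score 363) and 1398 bp (chr11:5794061-5795458, score 432) lay at and past the 3′ end. Myl7 was the cardiac member with no S1 peak at its start.

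Of the essential light chains, Myl4 is the atrial and embryonic form and is also made in embryonic skeletal muscle. Its annotated body of 45.1 kb begins with a far upstream exon of transcript Myl4-001, and the coding transcripts Myl4-003 and Myl4-004 start 26.3 and 26.6 kb further on. No peak of either library lay in the first 9019 bp of the body or within 50 kb upstream of it. The peaks lay at the internal starts, in S4 as 4621 bp with a score of 2269 (chr11:104437873-104442493) and in S1 as 2 peaks of 1382 bp each with scores of 835 and 357, and around the end of those transcripts, in S4 as 3874 bp with a score of 1599 (chr11:104447870-104451743) and in S1 as peaks of 752 and 1950 bp with scores of 234 and 707. With each gene counted from its outermost annotated start, the nearest protein-coding gene start to this second region was that of the integrin gene Itgb3, 19.6 kb away. The internal start of the coding transcript Myl4-008, at 104446278, lay nearer. Measured on Myl4-004, 9.94 kb long, cover was 32.5% in S1 and 45.9% in S4.

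Myl3 encodes the ventricular essential light chain and is also used in slow muscle. It had the lowest cover of the cardiac members in S1, and no base of its body lay under peaks of both libraries, unlike the bodies of the other cardiac members. S1 listed 526 bp at the start (chr9:110665824-110666349, score 171), and S4 listed 1492 bp 2.06 kb inside the gene (chr9:110667465-110668956, score 563). A region 8.86 kb past the start, beyond the end of the gene, was found in both, in S1 as 675 and 753 bp with scores of 154 and 327 and in S4 as 722 and 570 bp with scores of 205 and 148.

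**Figure D3:**
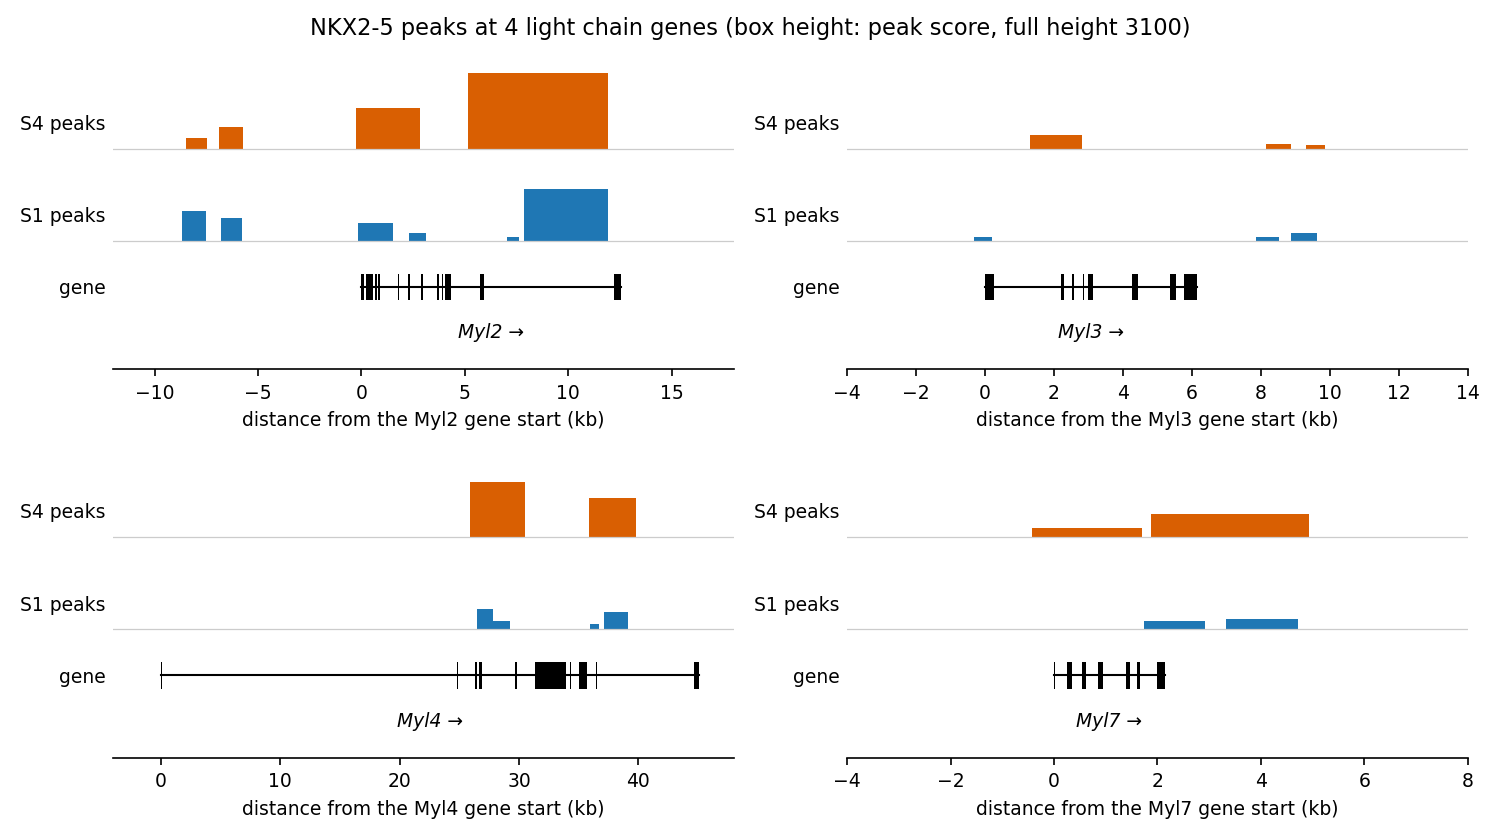
Peaks of S1 (blue) and S4 (orange) at Myl2, Myl3, Myl4 and Myl7 against the distance from the annotated gene start (x axis, kb, in the direction of transcription), with box width as peak width and box height as score, full height 3100. Black bars are exons of all annotated transcripts. Myl2 shows a tall peak toward its annotated end and 2 upstream peaks of about 1 kb, and Myl4 peaks lie at its internal starts and around the end of its coding transcripts.

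Peaks lay at the 3′ ends as well as at the starts. For each gene the shortest transcript that holds at least 90% of the longest coding sequence was taken, a choice made after the values were seen. A peak lay over the start of that transcript for 5 of the 8 members in S1 (not Myl7), for 5 in S4 (not Myl3) and for 4 in both, against 2.15% and 3.54% of all protein-coding genes. Within 5 kb past its end, all 6 cardiac members had bases under peaks in both libraries, against 2.21% and 3.07% of all genes. Of those 5 kb, the share under peaks in S1 was 62.7% for Myh6, 41.3% for Myl4, 43.5% for Myl7, 57.0% for Myh7, 40.5% for Myl2 and 28.6% for Myl3. In S4 it was 79.0%, 64.3%, 55.6%, 100%, 84.3% and 25.8% in the same order. For Myh7 this ground is also the region before the Myh6 start, and for Myl2 and Myl4 it lies within the annotated gene.

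Exonic and intronic cover were compared within the genes. In S4, 49.7% of the exonic and 54.1% of the intronic bases of Myh6 lay under peaks, and 64.7% and 62.0% of those of Myh7. In S1 the shares were 17.5% and 16.6% for Myh6 and 8.78% and 14.7% for Myh7. At Myl2 the intronic share was the higher, with 58.0% against 42.4% in S1 and 80.8% against 53.7% in S4. Myh6 and Myh7 are similar in sequence, so the uniqueness of their sequence was counted. Runs of 32 bases found once in the assembly made up 89.4% of the Myh6 body and 87.0% of the Myh7 body, and 8.59% of the Myh6 runs also occurred in Myh7. Under peaks the unique share was 94.6% or more for Myh6 and 92.9% or more for Myh7, and it lay between 92.3% and 100% for the light chain genes. How reads with several matches were handled is not given in the sources used here.

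Peaks at the myosin genes were wider and scored higher than the lists as a whole. Their median width was 962 bp in S1, where the median of all peaks was 625 bp, and 1568 bp in S4, where it was 783 bp. Their median score was 357 against 212 in S1 and 684 against 223 in S4. Peaks of at least 3 kb made up 0.136% of S1 (6 peaks) and 0.459% of S4 (25 peaks). The myosin genes held 1 of the 6 and 9 of the 25. Of the 100 highest-scoring peaks, 2 in S1 and 8 in S4 lay at these genes, and 2 of the 13 S4 peaks with the top score of 3100 did. A score of 3100 is a ceiling that 9 S1 and 13 S4 peaks share, so peaks at it have no order. The widest and highest peaks were not of one class, with Myh6, Myl4 and Myl7 as well as Myh7 and Myl2 among those of at least 3 kb in S4.

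**Figure D4:**
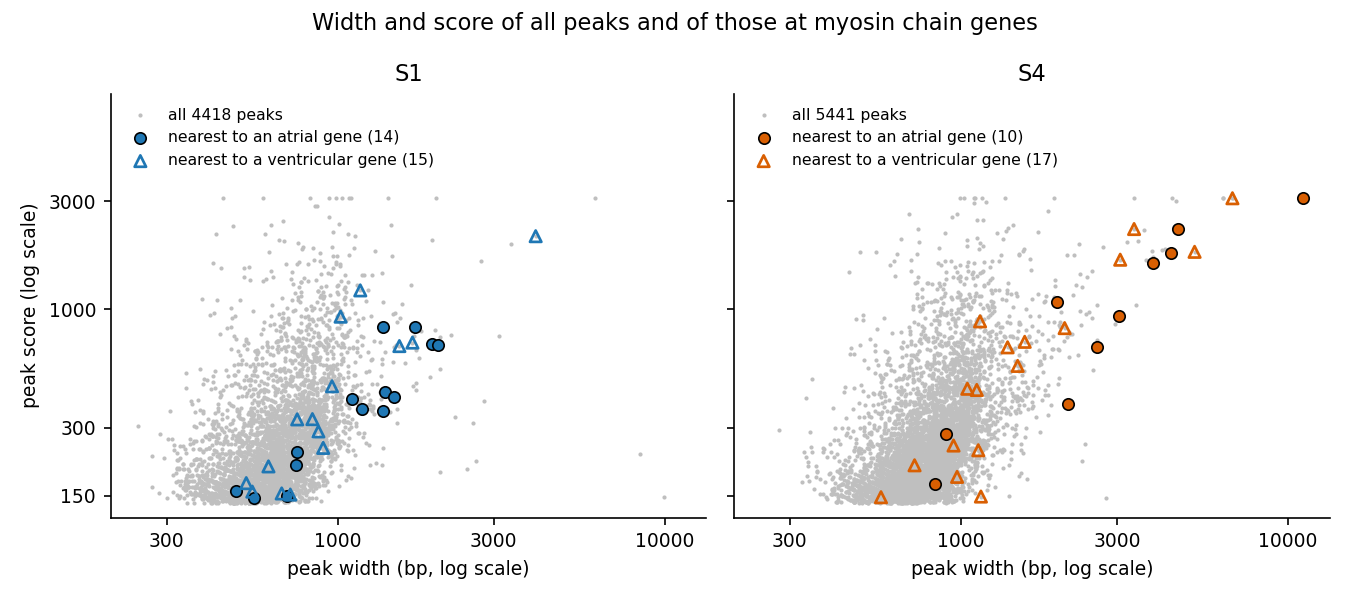
Peak score (y axis, log scale) against peak width (x axis, bp, log scale) for all peaks of S1 and S4 (grey) and for those nearest to an atrial (filled circles) or a ventricular (open triangles) myosin gene. In S4 the myosin peaks reach the right edge of the list, up to 11100 bp at a score of 3100, while in S1 the widest is 4036 bp at a score of 2107.

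The libraries overlapped more at these genes when read from S1 than when read from S4. Of the S1 peaks at myosin genes, 26 of 29 overlapped an S4 peak (89.7%, exact 95% interval 72.6% to 97.8%), while over the whole list 58.9% did. Of the S4 peaks, 16 of 27 overlapped an S1 peak (59.3%, 38.8% to 77.6%), while over the whole list 47.0% did. The intervals cover counting error only, and peaks of one gene are not independent of each other. A wide peak can meet several peaks of the other library, and 1 S4 peak at Myh6 met 5 S1 peaks. The part of peak width and splitting in these shares was not tested. Joined where they overlapped, these peaks made 15 shared regions, of which 8 held more than 2 peaks, against 2.16% of all 2546 shared regions. In the 15 regions the median share of the S1 bases that also lay under S4 peaks was 100%, and of the S4 bases under S1 peaks 62.9%. Over all regions the medians were 99.6% and 76.7%.

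Regions on a gene body and regions off it differed in how S4 compared with S1. In the 10 shared regions that touched a member's body, S4 covered more bases and had the higher score in 10 of 10, with median ratios of S4 to S1 of 1.63 for bases (range 1.18 to 3.71) and 2.54 for the highest score (range 1.47 to 4.57). In the 5 regions off the bodies the medians were 1.12 for bases (0.892 to 1.63) and 0.954 for score (0.368 to 2.53). There S4 covered more bases in 3 of 5 and had the higher score in 2 of 5. Over all 2546 shared regions the medians were 1.23 and 1.12. S4 covered more bases in 2009 of them and had the higher score in 1543. The 2 regions off a body where S4 scored higher were the one downstream of Myh6, within reach of Cmtm5, and the element upstream of Myh7. The 3 where S1 scored higher were the Myl2 upstream elements and the region past the end of Myl3. What separates the regions on the bodies from those off them was not tested.

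**Figure D5:**
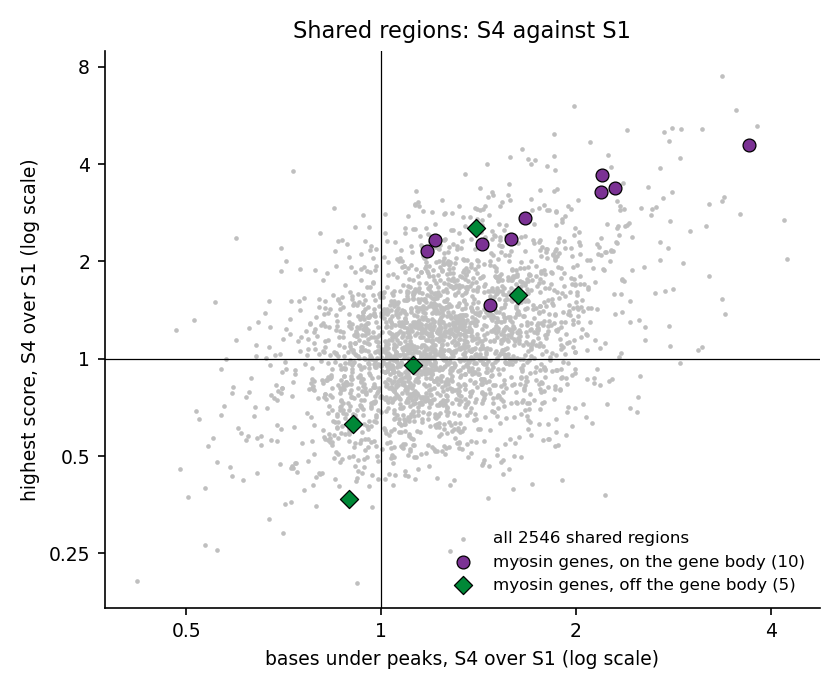
Ratio of S4 to S1 in the highest score (y axis, log scale) against the ratio in bases under peaks (x axis, log scale) for all 2546 shared regions (grey), the 10 at myosin genes that touch the gene body (circles) and the 5 that do not (diamonds). All circles lie above 1 on both axes, and 3 of the 5 diamonds lie below 1 in score.

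The motif cores were counted per kb of peak and at the peak midpoints. The lists used here give no peak summit, and a midpoint need not lie at it. Both strands were searched for exact matches, where N is any base. AAGTG occurred 2.46 times per kb of myosin peak in S1 and 2.34 in S4, against 3.54 and 3.25 per kb of all peaks. The longer NKX2-5 site TNAAGTG, which contains AAGTG, occurred 0.474 and 0.390 times per kb, against 1.12 and 0.981. Within 100 bases of the peak midpoint TNAAGTG was present in 3 of 29 S1 and 3 of 27 S4 myosin peaks, 10.3% and 11.1%, whereas 28.9% and 26.6% of all peaks held it. TGACA occurred 2.49 and 2.48 times per kb, against 3.57 and 3.28. At the midpoints, AAGTG was present in 55.2% of S1 and 44.4% of S4 myosin peaks, against 60.1% and 57.8% of all peaks, and TGACA in 34.5% and 51.9%, against 57.9% and 56.1%. The combined site GTGNTGACA, which contains TGACA, was at no midpoint of a myosin peak, against 7.38% of all S1 and 6.65% of all S4 midpoints, and it occurred 0 times within the whole S1 myosin peaks and 3 times within the S4 ones.

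Of the other cardiac motifs, CATTCC, the core of the TEAD site, occurred 0.770 times per kb of S1 and 0.636 times per kb of S4 myosin peak, against 0.719 and 0.698 in all peaks. AGATAA, a site of the cardiac zinc finger factors, occurred 0.563 and 0.506 times, against 0.731 and 0.701. The MEF2 element occurred 0.0296 times per kb of S1 and 0.101 times per kb of S4 myosin peak, 1 and 7 matches in all, against 0.133 and 0.136 per kb of all peaks. The CArG box of SRF occurred 0.0592 and 0.0433 times, 2 and 3 matches, against 0.0645 and 0.0642. Peaks upstream of the genes held AAGTG 2.15 times per kb in S1 and 1.82 in S4, no more than the other myosin peaks (2.51 and 2.39), and TGACA 3.01 and 3.48 times per kb against 2.40 and 2.39 in the others. The upstream peaks numbered only 4 in S1 and 5 in S4 and were not all at the same places. The bases under myosin peaks were 51.9% G or C in S1 and 51.5% in S4, against 49.3% and 49.0% under all peaks. Myosin peaks were also wider, with median widths of 962 and 1568 bp against 625 and 783 bp of all peaks. The part of these differences in the motif counts and densities was not tested.

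Myosin genes of other muscles and partners of the thick filament set the members in context. Of 10 other sarcomeric myosin genes, 2 in S1 and 1 in S4 had a peak within 50 kb, against the 26.3% and 32.0% of all genes given above. The skeletal heavy chain genes Myh1, Myh2, Myh3, Myh4, Myh8 and Myh13, which all lie on chromosome 11, had none in either library. Whether their windows overlap was not examined, so they may not be separate loci. Of the list, only Myl6b had a peak over its body, in S1, with 2.94% of the body covered, and its neighbour Myl6 lies close by. Of 7 smooth and non-muscle myosin genes, 6 in each library had a peak within 50 kb, and 5 in S1 and 4 in S4 had one over the body, against 26.3% and 32.0% of all genes within 50 kb and 9.24% and 11.7% over the body. The essential light chain gene Myl6 had the most cover of these, at 29.7% and 37.9%. The others with a peak over the body were Myl9 (5.83% and 8.64%), Myl12b (5.92% and 5.03%), Myh11 (1.11% and 1.13%) and, in S1, Myh9 (0.569%).

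Of 14 partners of the thick filament and of its assembly, 11 in S1 and 12 in S4 had a peak within 50 kb, and 8 in each had one over the body, read against the same shares of all genes (26.3% and 32.0%, 9.24% and 11.7%). Hspb7, a small heat shock protein of the sarcomere, had 37.9% and 26.6% of its 4.53 kb body under peaks, and Mybpc3, the cardiac myosin binding protein C, 5.83% and 10.2%. Mylk3, the kinase of the cardiac regulatory light chain, had 4.17% and 5.11%, and Smyd1, a methyltransferase that acts with myosin assembly, 2.02% and 1.69%. Mylk had 1.01% and 0.722%, Myom2 0.758% and 1.22%, and Ttn, the titin gene, 0.419% and 0.677%. Myom1 had a body peak in S1 (0.519%) and Unc45b, a myosin chaperone, in S4 (2.53%). The median cover over this list was 0.469% in S1 and 0.700% in S4, below the cover of every cardiac myosin member in the same library. Genes of the list with no peak over the body count as 0 in this median, whereas the members without peaks, Myh7b and Myl1, are left out of the comparison. Cover is a share of gene length, and the list includes long genes such as Ttn (279 kb) and Mylk (257 kb). Single genes of the list overlapped the members. Hspb7 lay above all cardiac members but Myl2 in S1 and above Myl4 and Myl3 in S4. Mybpc3 and Mylk3 lay above Myl3 in S1.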

How the data were processed

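Chromatin of E11.5 hearts was immunoprecipitated by the authors with an NKX2-5 antibody. The authors aligned reads to mm9 with Bowtie and called peaks with MACS. The deposited lists give, for each library separately, peak positions in base pairs and a score. By the convention of MACS the score is 10 times the negative log10 of the peak's p-value, which the sources used here do not state. MACS settings and the use of the Input library as control are not given in the sources used here. Scores depend on depth and were not put on one scale between libraries.

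Starts were converted to count from 1. Peaks were given to genes of GENCODE M1 by midpoint, within 50 kb of the gene body. Cover was the percent of bases under peaks. Peaks were partners when they shared at least 1 bp. A peak was described as at a start when it lay over it or had its midpoint within 1 kb, and starts were counted as covered only under a peak. All 8 members were named, with every peak at their bodies or starts and every shared region. Further genes named were those with the nearest start to such a peak and, from the 3 lists, those with a peak over the body. For the nearest start, each gene was taken at its outermost annotated start. The skeletal heavy chain genes, Ccdc63 and Tpm1 were named after their values were seen. Of the listed genes Myl12a was not found in the annotation. The 8 members, the lists and the motifs were chosen with earlier results of these data known. Alternatives were windows of 10 and 100 kb, a score of at least 200, the 2209 top-scoring peaks of each list, merging within 1 kb, an overlap of 50% of both peaks, nearest member only, 1 kb added to the body, and each library left out. Functions were tested on simulated peaks. Python 3.11.15, pandas 2.3.3, numpy 2.4.6, scipy 1.17.1 and matplotlib 3.10.9 were used.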

Additional observations from a re-analysis of the deposited data

How the results depend on the processing

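Of 36 alternative values of the class counts, covers, shared regions and member counts that could move, 31 stayed within 1.5 times for a count and 1 SD between libraries for a cover. Values of 0 and covers with 1 of 2 libraries left out are not among them, since the latter move by a fixed share of the SD. The limit for a cover is wide, 27.3 points for atrial and 21.8 points for ventricular genes, so staying within it shows little. The turn in class order given below stayed within it. The mean number of peaks at atrial genes, 19.5, became 11 with peaks within 1 kb merged and 12 with each peak given to its nearest member only. The mean at ventricular genes, 23, became 15 in the 2209 top-scoring peaks of each list and 13.5 with merging. By construction these settings join, divide or remove peaks. The 15 shared regions became 8 when an overlap of 50% of both peaks was asked for. Under that setting Myl7 lost its shared region and 5 members kept one within 50 kb. Myh6 is among these 5 only through regions at Myh7, which also fall in its window, and the regions nearest to Myh6 were lost. Myh7b and Myl1 also had 0 peaks in the window of 100 kb, while smaller windows and shorter lists could only remove peaks. With lists of equal length, in which no library has more peaks than the other, mean cover was 12.7% in S1 and 53.6% in S4 for atrial genes and 21.3% and 50.4% for ventricular genes. Leaving out a library gave a range of 16.1% to 54.7% for atrial and 23.8% to 54.6% for ventricular cover, of 19 to 20 atrial peaks and of 23 to 23 ventricular peaks. Measured on the shortest coding transcript, an alternative chosen after seeing the data, cover was 43.1% and 37.1%, so the order of the classes, 35.4% and 39.2% on gene bodies, turned. No paired analysis was possible because the result comes from no test and only 1 group had peak lists. The lists give no depth, so weak binding below the lowest listed score cannot be seen, and what raised cover in S4 was not tested.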
